A study of Mus musculus with 12 samples.

Results

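Among 12 arrays of mouse spleen RNA, 4 arrays carried very high levels of inflammatory cytokine genes such as Il6, and another 4 carried low ones. The first block holds the arrays titled M5, M6, M7 and M16 and is called the cytokine-high block here. The second holds M8, M9, M10 and M11 and is called the quiet block. Both blocks were chosen on measured values, through the likeness of the arrays and genes such as Il6, Cxcl2, Saa3, Fcer2a and Ccr3, so every difference between them is a description and none was tested. Together they make up 8 of the 12 arrays. The 4 arrays titled M12 to M15 are called the remaining arrays.

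The study measured gene expression in spleens of C57BL/6 mice. Septic animals had undergone colon ascendens stent peritonitis (CASP), in which a stent set into the ascending colon leaves it open to the abdominal cavity, so that gut bacteria escape. The labels give 4 replicates each to septic TLR-deficient mice (M5 to M8), septic wildtype mice (M9 to M12) and untreated wildtype mice (M13 to M16), where TLR stands for Toll-like receptor. Each replicate is labelled as a biological one. The titles of the TLR-deficient samples read Trifxmyd, which points to the adaptors Trif and MyD88. The alleles, the age and sex of the animals and the time between operation and sampling are not given in the sources used here, and no untreated TLR-deficient group is among the samples.

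The blocks do not follow the labels. By label the cytokine-high block holds septic TLR-deficient replicates 1, 2 and 3 and untreated wildtype replicate 4. The quiet block holds septic TLR-deficient replicate 4 and septic wildtype replicates 1, 2 and 3, and the remaining arrays are septic wildtype replicate 4 and untreated wildtype replicates 1, 2 and 3. In the deposited column order the blocks are runs of 4 columns that start 1 place away from the labelled runs, with the last column joined to the first 3. Had the columns been filled in the order the titles take when sorted as text, where M10 comes first and M9 last, the cytokine-high columns would carry 4 arrays titled as septic wildtype, the quiet columns 4 titled as untreated wildtype and the remaining columns 4 titled as TLR-deficient. That reading is unproven, and no array was moved to another group here. All names below are column titles, and the condition of each array stays as labelled.

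A few genes can be set beside the labels. Myd88, the adaptor used by most TLRs, had log2 values of 9.64, 9.42, 9.44 and 9.75 on M5, M6, M7 and M16, 9.20, 8.87, 9.14 and 9.32 on M12 to M15, and 8.62, 8.70, 6.48 and 8.78 on M8 to M11. Ticam1, which encodes Trif, lay between 5.76 and 5.93 in the cytokine-high block, 5.64 and 6.22 in the quiet block and 6.04 and 6.57 on the remaining arrays. Neither adaptor stood lowest on the remaining arrays. The alleles are unknown and where the probe sets lie relative to them was not tested, so nothing on the labels is read from these values. Xist, the RNA that coats the inactive X chromosome of female cells, was between 8.94 and 10.94 in both blocks and between 3.73 and 4.33 on the remaining arrays. The Y-linked gene Eif2s3y ran the other way, at 2.48 to 4.50 in both blocks and 7.21 to 7.95 on the remaining arrays. The cytokine-high and quiet blocks were therefore alike in these transcripts, while any difference from the remaining arrays cannot be told apart from that of the sex-linked ones.

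B cell genes, which mark the spleen among other lymphoid organs, had a mean level of 7.74 to 9.48 on the 12 arrays. The deposited values are log2 levels per probe set and lay between 1.33 and 13.79. Probe sets with a single gene symbol gave 19938 genes, with the brightest probe set by mean standing for each gene. Array medians ran from 5.22 to 5.54. Across genes, the best-correlated partner of each of the 12 arrays lay in its own block, and for 5 of them in its own labelled group. The blocks were chosen in part through this likeness, so a partner in the own block was built in. These counts therefore cannot weigh the blocks against the labels, and the correlations within and between blocks are descriptions for the same reason. Pearson's r was 0.972 to 0.985 within the cytokine-high block (6 pairs), 0.988 to 0.990 within the quiet block without M10 (3 pairs) and 0.956 to 0.969 between them without M10, and these arrays share the same probe sets and normalization.

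M10 stood apart. Its log2 values had a standard deviation of 1.52, the other arrays 2.11 to 2.24, and its correlation with them was 0.765 to 0.809. Relative to the mean of the other 3 quiet arrays, M10 differed by a median of 1.08 in the third of genes with the lowest levels and of -1.29 in the third with the highest. Dim genes thus read higher on M10 than on the rest of its block, and bright genes lower. For this reason differences between the blocks are given with all 8 arrays and, in brackets, again without M10.

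**Figure D1:**
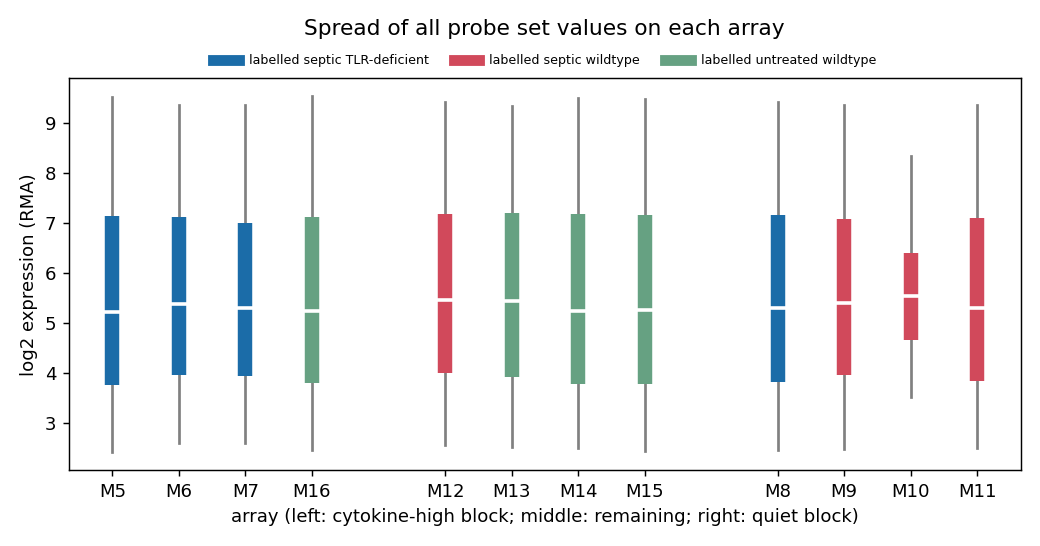
The spread of log2 expression over all 35557 probe sets is drawn for each array, ordered by block, with the vertical axis in log2 units. M10 spans a narrower range than the other 11 arrays, with a standard deviation of 1.52 against 2.11 to 2.24.

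In sepsis, bacterial products such as lipopolysaccharide are sensed by TLRs on macrophages, dendritic cells and stromal cells of the spleen. Signalling through MyD88 and Trif frees the transcription factor NF-kappaB, which switches on cytokines, chemokines that draw neutrophils, and its own inhibitors, while interferons start a separate antiviral program. Stress hormones and the cytokine IL-6 induce acute-phase and glucocorticoid-responsive genes, and lymphocytes and dendritic cells of the spleen are known to be lost as sepsis goes on.

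Promoter sequences were searched for a kappaB motif, and whether NF-kappaB acted through it in these spleens was not tested. The motif GGANTTTCC, the core of a kappaB site, was searched on both strands in the 250 bases before each RefSeq transcription start (GRCm38.p6). It matched 350 of 32851 promoter windows (1.07%) and 210 of 15614 promoters of measured genes (1.34%). Among the 12 genes with the largest positive differences, 3 (30%) of the 10 with a promoter in the table held it (Il6, Cxcl2 and Acod1), and among the 12 with the largest negative differences 1 of 11 did (Ccr3). The match in Acod1 lies 85 bases before the start and that in Ccr3 179 bases before it, both on the reverse strand. The last 150 bases before the start are printed 5′ to 3′ on the gene's strand for the 3 neutrophil-recruiting chemokines that share the motif, for Il6, and for Saa3, which has the largest difference and no match, with the motif in capitals. The 3 chemokines were printed because they match, out of 6 genes of the neutrophil-recruiting list with a promoter in the table. Cxcl1 and Cxcl3 are not among the 12 genes with the largest positive differences. A match is a description of the letters only. The windows are chr5:30012964-30013113 (plus strand) for Il6, chr5:90903749-90903898 (plus) for Cxcl2, chr5:90891095-90891244 (plus) for Cxcl1, chr5:90785951-90786100 (plus) for Cxcl3 and chr7:46715677-46715826 (minus) for Saa3.
Il6: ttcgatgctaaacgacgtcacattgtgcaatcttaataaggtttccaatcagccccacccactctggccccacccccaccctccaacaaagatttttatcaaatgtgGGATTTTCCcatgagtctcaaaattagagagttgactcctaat
Cxcl2: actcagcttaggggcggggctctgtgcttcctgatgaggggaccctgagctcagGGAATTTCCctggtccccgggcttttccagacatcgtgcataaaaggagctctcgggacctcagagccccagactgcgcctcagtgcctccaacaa
Cxcl1: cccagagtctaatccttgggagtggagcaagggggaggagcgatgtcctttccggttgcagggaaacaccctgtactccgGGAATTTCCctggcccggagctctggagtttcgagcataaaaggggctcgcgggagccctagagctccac
Cxcl3: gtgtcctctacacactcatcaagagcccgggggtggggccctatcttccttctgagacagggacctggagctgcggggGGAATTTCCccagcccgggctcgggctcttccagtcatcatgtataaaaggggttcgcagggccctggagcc
Saa3: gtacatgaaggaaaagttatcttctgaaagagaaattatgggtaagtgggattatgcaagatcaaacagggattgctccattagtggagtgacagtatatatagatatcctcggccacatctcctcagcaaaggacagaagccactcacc
The motif starts 43 bases before the start of Il6, 96 before Cxcl2, 70 before Cxcl1 and 72 before Cxcl3. Cxcl1, Cxcl2 and Cxcl3 carry the same letters at the site.

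The 5 marker genes separated the blocks with no overlap. Il6, the cytokine that drives the acute-phase response, had log2 values of 9.06, 8.47, 6.34 and 9.22 on M5, M6, M7 and M16, against 3.05, 2.90, 4.27 and 3.35 on M8 to M11 and 3.75, 3.69, 4.31 and 4.21 on M12 to M15. M7 was the lowest cytokine-high array for this gene and M10 the highest quiet array. The block means differed by 4.88 on the log2 scale (29.5-fold), or 5.17 without M10.

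Cxcl2, a chemokine that draws neutrophils, read 9.68, 10.52, 10.06 and 10.57 in the cytokine-high block, 4.62, 4.52, 6.50 and 4.86 in the quiet block and 5.39 to 5.80 on the remaining arrays (difference 5.09, and 5.54 without M10). Saa3, an acute-phase serum amyloid protein, read 11.50, 10.16, 9.74 and 9.53 against 4.07, 4.59, 5.43 and 5.05, with 6.53 to 7.39 on the remaining arrays (difference 5.45, and 5.66 without M10). For Cxcl2 the remaining arrays lay near the quiet block, whereas for Saa3 they formed a step of their own between the blocks.

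Both of the markers that were low in the cytokine-high block are cell surface receptors. Fcer2a, a B cell receptor for IgE, was 4.99, 5.18, 5.31 and 5.38 there, against 9.35, 9.88, 7.76 and 9.19 in the quiet block (difference -3.83, and -4.26 without M10). Ccr3, the eotaxin receptor of eosinophils, was 3.65, 4.22, 4.73 and 3.33 against 8.70, 8.19, 7.08 and 8.52 (difference -4.14, and -4.49 without M10). On the remaining arrays Fcer2a lay between 7.63 and 8.79 and Ccr3 between 7.30 and 7.81, nearer to the quiet block in both. In bulk spleen RNA, fewer cells of a type and less RNA per cell cannot be told apart.

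**Figure D2:**
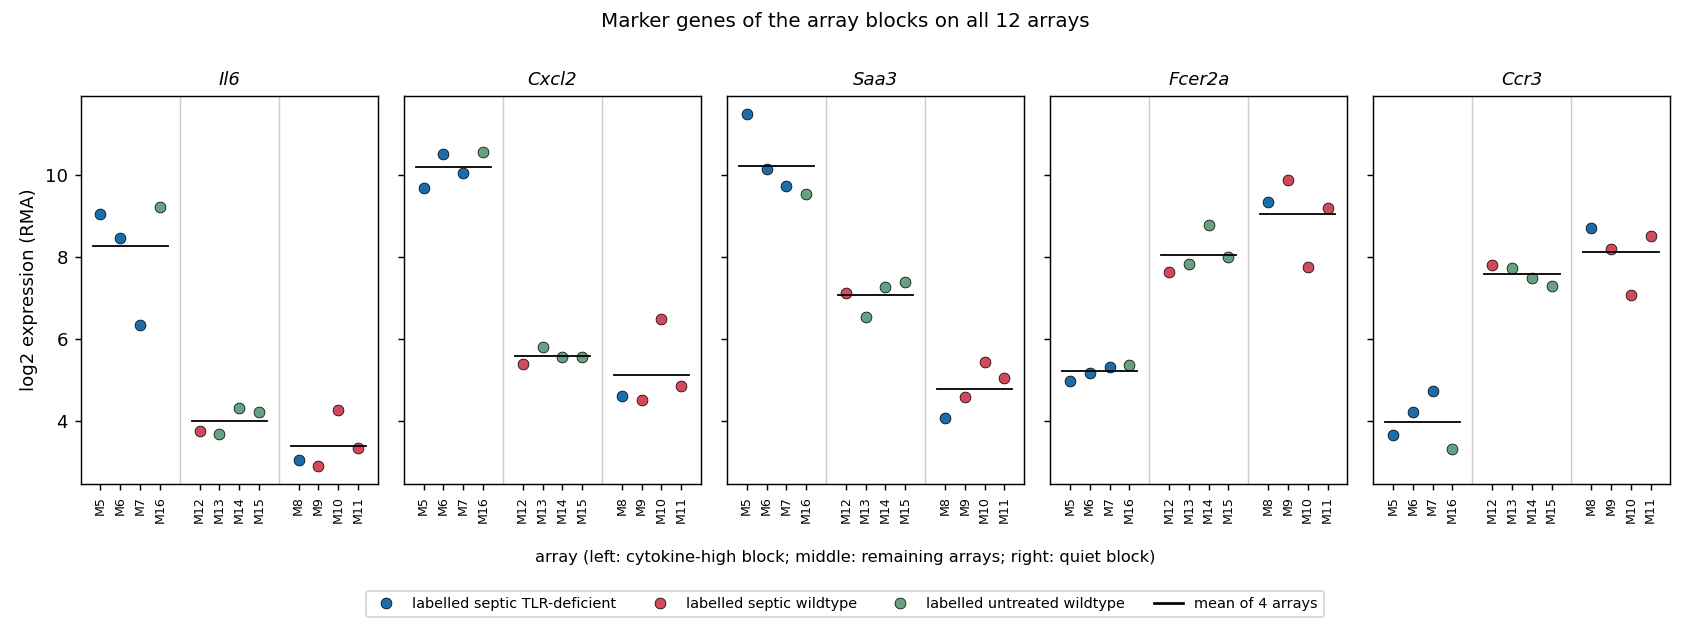
Log2 expression of the 5 marker genes is plotted for each of the 12 arrays, with the cytokine-high block at the left, the remaining arrays in the middle and the quiet block at the right, coloured by label, and a bar at the mean of each block. Il6, Cxcl2 and Saa3 are high and Fcer2a and Ccr3 low in the cytokine-high block, with no overlap between it and the quiet block.

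Over all 19938 genes, 1041 (5.22%) were higher on all 4 cytokine-high arrays than on all 4 quiet arrays and 993 (4.98%) were lower, which is 10.2% either way. Without M10 these shares became 6.74% (1344 genes) higher and 12.5% (2491 genes) lower, 19.2% in all. With a minimum of 2-fold added, 548 genes (2.75%) were higher and 156 (0.782%) lower, and without M10 404 (2.03%) and 437 (2.19%). Of the 548 higher genes 371 (67.7%) were also among the 404, and of the 156 lower genes 145 (92.9%) were also among the 437. Leaving out an array loosens the no-overlap rule, so counts without a fold minimum can then only stay or rise. Besides the values without M10, the number of lower genes was 1519 without M5, 1524 without M7 and 1569 without M8. At 2-fold it was 239 without M5. Centring each array on its median turned the split from 1041 higher and 993 lower into 1195 and 554. Since the blocks were formed on these values, nothing is read from the shares themselves. Between labelled groups the share without overlap was 3.8% for septic TLR-deficient against septic wildtype, 6.42% for septic wildtype against untreated wildtype and 3.4% for septic TLR-deficient against untreated wildtype. At the edge of the no-overlap rule, Snora44, Rpap3 and Trmt61a lay just inside, and Zc3hav1, Slc16a7 and Rbm17 just outside. The median difference over all genes was -0.12 (-0.03 without M10).

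Inflammatory cytokine genes formed the first large group. Of 24 measured members, 9 were higher without overlap and 0 lower (13 and 0 without M10), with a median difference of 0.92 (0.98 without M10). Il1a, an alarm cytokine of the IL-1 family, read 9.86, 8.88, 8.24 and 8.99 in the cytokine-high block against 5.76, 5.17, 5.01 and 5.10. Il10, which restrains inflammation, was 7.98, 7.91, 7.71 and 7.87 against 4.18, 3.72, 4.88 and 4.07. Il1rn, the natural antagonist of the IL-1 receptor, differed by 3.32 (3.35 without M10). Cytokines that drive and cytokines that restrain inflammation were thus high on the same 4 arrays. Il10 spanned 7.71 to 7.98 on them, a narrower range than Il6 at 6.34 to 9.22.

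Chemokines followed by receptor class. Among 7 genes of the neutrophil-recruiting CXC group, 4 were higher (Cxcl1, Cxcl2, Cxcl3 and Cxcl5) and 2 lower (Cxcr2, the receptor for these ligands on neutrophils, and Ppbp, a platelet chemokine), with and without M10. Cxcl1 read 9.47, 9.56, 8.33 and 9.74 against 5.65, 6.03, 6.50 and 5.93, and Cxcl5 8.97, 8.33, 7.62 and 8.85 against at most 5.91. Cxcr2 read 6.15, 5.53, 6.22 and 6.15 against 7.72, 8.10, 6.25 and 7.46, so its blocks barely parted at M10. These 4 ligands were high where Cxcr2 was low, whereas the chemokine Ppbp was low there too, at 9.17 to 10.04 against 10.19 to 10.96. Cxcr2 was at 8.36 or more on each of the remaining arrays.

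Of 11 inflammatory CC chemokines, which draw monocytes and lymphocytes, 5 were higher and 0 lower (7 and 1 without M10), with a median of 1.48 (1.59). Ccl3 reached 11.46, 11.45, 9.85 and 10.99 against 6.89, 6.49, 6.77 and 6.09, and Ccl4 differed by 3.28 (3.33). Ccl2, the main monocyte chemokine, overlapped because M7 read 6.15 and M10 6.85 (difference 2.42, and 2.95 without M10). The ligands of the T cell receptor CXCR3 were split: Cxcl10 differed by 2.81 (2.55) without overlap, Cxcl11 by 1.45 (1.77) and Cxcl9 by 1.33 (0.96), both with overlap. Without M10 Cxcl11 no longer overlapped.

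Genes of NF-kappaB and its feedback loop were higher in 13 of 19 measured members and lower in 0, also without M10 (median 1.36, and 1.06 without M10). Tnfaip3, the A20 protein that shuts NF-kappaB signalling down, read 10.25, 10.32, 9.64 and 10.91 against 7.87, 7.82, 6.76 and 7.64. Tnip3, a partner of A20, differed by 4.04 (4.18), Socs3, an inhibitor of IL-6 receptor signalling, by 3.36 (3.14) and Ier3, an early response gene, by 2.36 (2.49). Of the 17 members with a promoter in the RefSeq table, 6 (35.3%) carried the kappaB core shown above, against 1.34% of measured genes with a promoter there. The list was drawn up of NF-kappaB subunits and feedback genes, so this share does not depend on what the arrays read. The core lay 24 bases before the start in Tnfaip3 and 139 in Ier3. Icam1, the adhesion molecule, carried it at 153 bases and differed by 1.41 (0.88 without M10).

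Among 15 genes of lipopolysaccharide recognition and myeloid defence, 8 were higher and 0 lower, with and without M10 (median 1.04, and 0.72). Cd14, which hands lipopolysaccharide to TLR4, read 9.65, 10.49, 10.44 and 11.26 against 6.09, 5.71, 6.62 and 6.75. Acod1, which makes the antimicrobial metabolite itaconate, read 10.03, 8.77, 6.60 and 8.30 against 4.36, 4.75, 5.33 and 4.48. On the remaining arrays it read 6.09 or more and overlapped the cytokine-high block, while Cd14, at 6.58 to 8.41, did not. Ptgs2, the inducible cyclooxygenase, differed by 3.20 (3.42) and Clec4e, a receptor for microbial glycolipids, by 3.12 (3.27). AA467197 was among the largest differences at 4.35 (4.38).

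Acute-phase genes were higher in 7 of 19 measured members, with 0 lower (7 and 1 without M10). Lcn2, a protein that withholds iron from bacteria, read 12.06, 11.74, 11.03 and 11.68 against 8.12, 7.88, 9.02 and 8.71. Serpina3n, a protease inhibitor, differed by 3.42 (3.04) and Orm1, an acute-phase plasma protein, by 2.42 (2.25). Orm1 stood at 4.10 to 4.60 on the remaining arrays and Serpina3n at 10.52 to 11.17, so the first was quiet there and the second as high as in the cytokine-high block. Of 16 genes on the neutrophil granule list 1 was higher (Lcn2) and 1 lower (the receptor Cxcr2), with a median of 0.12 (0.19). Without M10 the counts were 2 and 2. Over all genes 5.22% were higher and 4.98% lower (6.74% and 12.5% without M10), so little is read from these counts.

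Stress-hormone and metal-response genes were next. Of 15 glucocorticoid-responsive genes, 11 were higher and 0 lower (12 and 0 without M10), with a median of 1.82 (1.64). Dusp1, a phosphatase that switches off MAP kinases, read 10.80, 11.27, 10.79 and 11.21 against 7.55, 7.70, 6.38 and 8.57. Pdk4, which spares glucose, differed by 2.89 (2.67) and Fkbp5, a regulator of the glucocorticoid receptor, by 2.35 (1.64 without M10, which read 4.93). Mt2, a zinc-binding metallothionein, read 12.25, 11.97, 11.92 and 12.37 against 9.23, 7.60, 8.70 and 8.59, and its neighbour Mt1 differed by 3.18 (3.05). Of 11 genes on a list of metallothioneins, zinc transporters and redox enzymes, 4 were higher and 0 lower, with and without M10. They were Mt1, Mt2, the zinc transporter Slc39a14 and Txnrd1, a thioredoxin reductase. The closely related Mt1 and Mt2 may share probes.

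Timp1, an inhibitor of matrix proteases, read 9.72, 8.62, 8.28 and 9.14 against 5.35, 5.67, 5.16 and 5.30, and Lox, which crosslinks collagen, differed by 3.01 (3.26). Of 17 stromal and endothelial genes 6 were higher and 0 lower, and without M10 7 and 5. Over all genes the lower share rose as well, from 4.98% to 12.5% without M10. Among 13 coagulation and fibrinolysis genes 5 were higher and 0 lower (6 and 1 without M10), led by Plat, the tissue plasminogen activator, at 2.38 (2.57) and Procr, the protein C receptor, at 2.36 (2.02). Hypoxia and glycolysis genes showed 2 of 15 higher and 1 lower (2 and 2 without M10), with Hif1a, the oxygen-sensing transcription factor, at 1.85 (1.52). The shares over all genes were 5.22% higher and 4.98% lower (6.74% and 12.5% without M10).

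**Figure D3:**
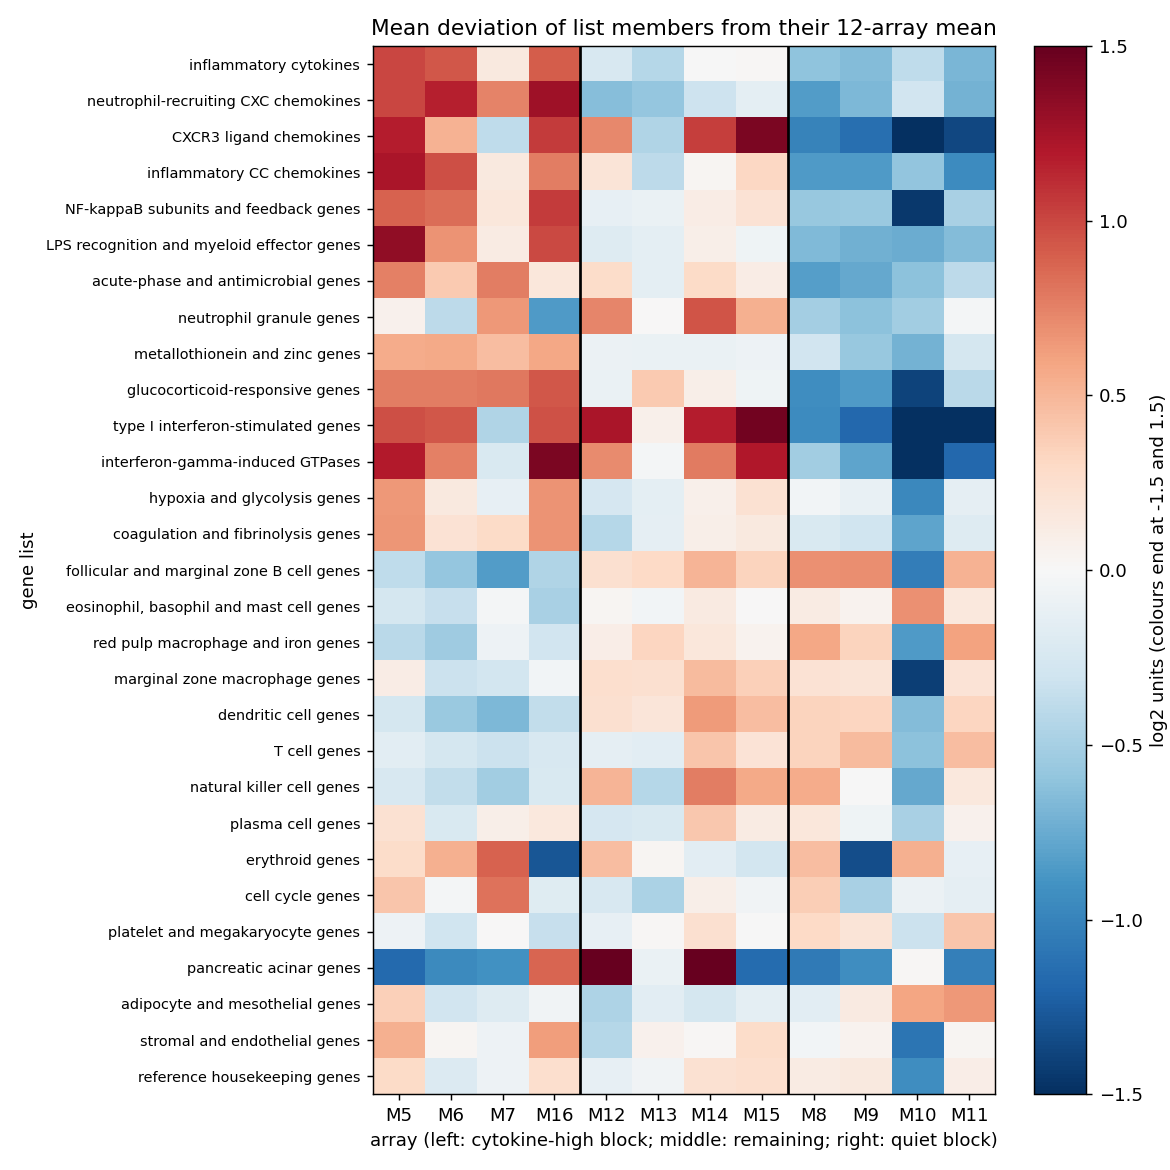
Each row is a gene list and each column an array, and the colour gives how far its members lie, on average, from their own 12-array means on the log2 scale. The cytokine, CXC chemokine and glucocorticoid-responsive lists are highest on M5, M6, M7 and M16, the NF-kappaB list has a mean level of 8.27 on M7 and 8.32 on the highest remaining array, and the interferon lists are high on the remaining arrays as well.

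Interferon genes separated the quiet block from both other sets of arrays. Of 23 measured type I interferon-stimulated genes, 18 were higher in the cytokine-high than in the quiet block and 0 lower, with and without M10, and the median was 2.14 (2.01). Their median on the remaining arrays was 2.23 above the quiet block without M10, and the cytokine-high block lay -0.40 from the remaining arrays. Ifit1, which binds viral RNA, read 10.38, 10.20, 9.17 and 10.84 in the cytokine-high block, 10.21, 8.97, 10.47 and 10.68 on M12 to M15 and 8.01, 7.45, 4.42 and 6.88 in the quiet block. Mx1, an antiviral GTPase, differed by 3.15 (3.07) between the blocks. Of 6 measured interferon-gamma-induced GTPases, which attack vacuoles holding microbes, 4 were higher and 0 lower, with and without M10, and Gbp5 read 9.97, 9.15, 7.99 and 10.17 against 7.56, 7.23, 5.36 and 6.79.

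For the cytokine list, the median on the remaining arrays was 0.47 above the quiet block without M10, and the cytokine-high block lay 0.43 above the remaining arrays. For the CXC chemokine list the same values were 0.29 and 2.90, so these chemokines were near the quiet level on the remaining arrays. Over all genes, 11.9% did not overlap between the cytokine-high block and the remaining arrays, and 9.47% between the remaining arrays and the quiet block (14.2% without M10). The 404 genes higher by 2-fold without M10 fell into 177 in which the remaining arrays overlapped the cytokine-high block and stood apart from the quiet block, 111 in which they did the reverse, 74 in which they stood apart from both and 42 in which they overlapped both. For the 437 lower genes the numbers were 78, 217, 95 and 47. The mean of the remaining arrays lay at a median of 44.6% of the way from the quiet to the cytokine-high mean for higher genes and 31.4% for lower genes. These numbers are a description, because the sets were selected on the blocks.

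**Figure D4:**
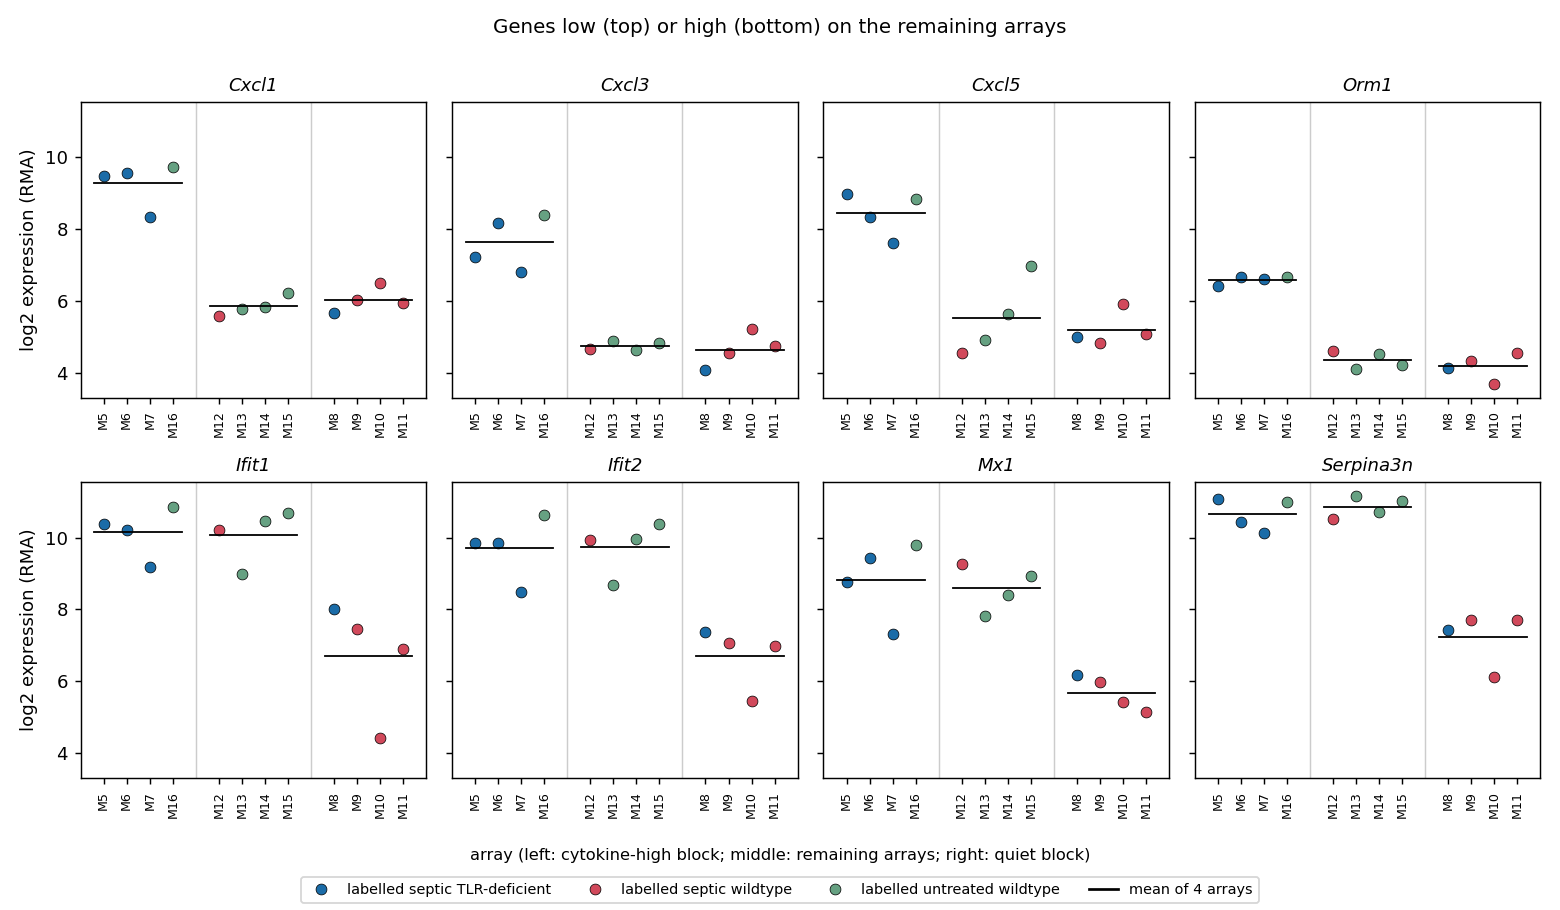
Log2 expression of Cxcl1, Cxcl3, Cxcl5 and Orm1 (top) and Ifit1, Ifit2, Mx1 and Serpina3n (bottom) is plotted for all 12 arrays in 3 blocks, coloured by label, with a bar at each block's mean. Ifit1 spans 9.17 to 10.84 in the cytokine-high block and 8.97 to 10.68 on the remaining arrays, while Cxcl3 spans 6.81 to 8.39 and 4.62 to 4.89.

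Some genes of resident spleen cells were lower in the cytokine-high block, and others overlapped or were higher. The counts differed with and without M10, on which bright genes read low. Over all genes the lower share was 4.98%, and 12.5% without M10, and the higher share 5.22% and 6.74%. A rise in lower genes without M10 was thus not confined to the resident-cell lists below. Of 17 follicular and marginal zone B cell genes 3 were lower and 1 higher with all arrays, and 12 and 1 without M10, with medians of -0.71 and -1.04. Cr2, the complement receptor of mature B cells, read 7.86, 7.13, 7.22 and 7.72 against 10.42, 10.29, 7.37 and 10.04, so only M10 overlapped. Fcmr, the IgM receptor, read 8.91, 8.23, 7.74 and 8.43 against 10.02, 10.06, 9.31 and 9.97, and Cd79b, a chain of the B cell receptor, differed by -1.18 (-1.33 without M10).

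Conventional dendritic cells of the cross-presenting type were represented by Clec9a and Xcr1. Clec9a, a receptor for dead cells, read 3.98, 4.51, 4.22 and 4.13 against 7.86, 7.64, 5.55 and 7.06 (difference -2.82, and -3.31 without M10). Xcr1, a chemokine receptor of the same cells, read 4.51, 4.39, 4.59 and 4.37 against 7.43, 7.24, 6.48 and 6.80. On the remaining arrays Clec9a was at 7.15 to 8.03, overlapping the quiet block, and Xcr1 at 5.86, 5.37, 7.03 and 6.17, with a mean of 6.11 between those of the cytokine-high block (4.47) and the quiet block (6.99, or 7.16 without M10). Over 18 dendritic cell genes 6 were lower and 3 higher (10 and 3 without M10). Ccr7, the receptor that guides dendritic and T cells to lymphoid zones, was 1 of the higher ones, at 1.42 (1.05). Ccr7 and Cd8a, which was lower, are counted in the T cell list as well.

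Iron-handling macrophages of the red pulp gave Slc40a1, the iron exporter ferroportin, at 7.88, 7.73, 9.21 and 7.91 against 11.69, 11.51, 9.86 and 11.52 (difference -2.96, and -3.39 without M10). Cd163, the haemoglobin scavenger receptor, read 4.15, 4.69, 6.22 and 5.38 against 7.77, 7.35, 6.27 and 7.87. In both genes M7 was the cytokine-high array nearest to the quiet block. Spic, a transcription factor of these macrophages, was not low, at 9.24 to 10.11 against 7.80 to 9.44. Of the 15 red pulp genes 2 were lower and 1 higher, and 7 and 1 without M10.

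Marginal zone macrophage genes went both ways. Marco, a scavenger receptor for bacteria, read 11.65, 10.86, 10.46 and 11.50 against 9.05, 9.39, 8.37 and 9.07, and Msr1, another scavenger receptor, was higher by 1.60 (1.58). Cd209b, a lectin of the same cells, differed by -0.94 (-1.13) with overlap at M10. Of 10 measured members 2 were higher and 0 lower with all arrays, and 2 and 6 without M10.

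Genes of T cells and natural killer cells were also lower in part. Cd8a, a co-receptor of cytotoxic T cells, read 8.29, 7.94, 7.47 and 7.55 against 9.40, 9.49, 8.95 and 9.45. Of 15 T cell genes 3 were lower and 1 higher (Ccr7), and 10 and 2 without M10. Ncr1, an activating receptor of natural killer cells, read 4.60, 3.66, 3.72 and 3.89 against 7.30, 6.31, 4.28 and 6.18, so M10 fell below M5. Gzmb, a cytotoxic granule protease, was the only natural killer gene higher without overlap, at 7.21 to 8.16 against 4.77 to 5.43. Among 12 natural killer genes 3 were lower and 1 higher, and 8 and 1 without M10.

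**Figure D5:**
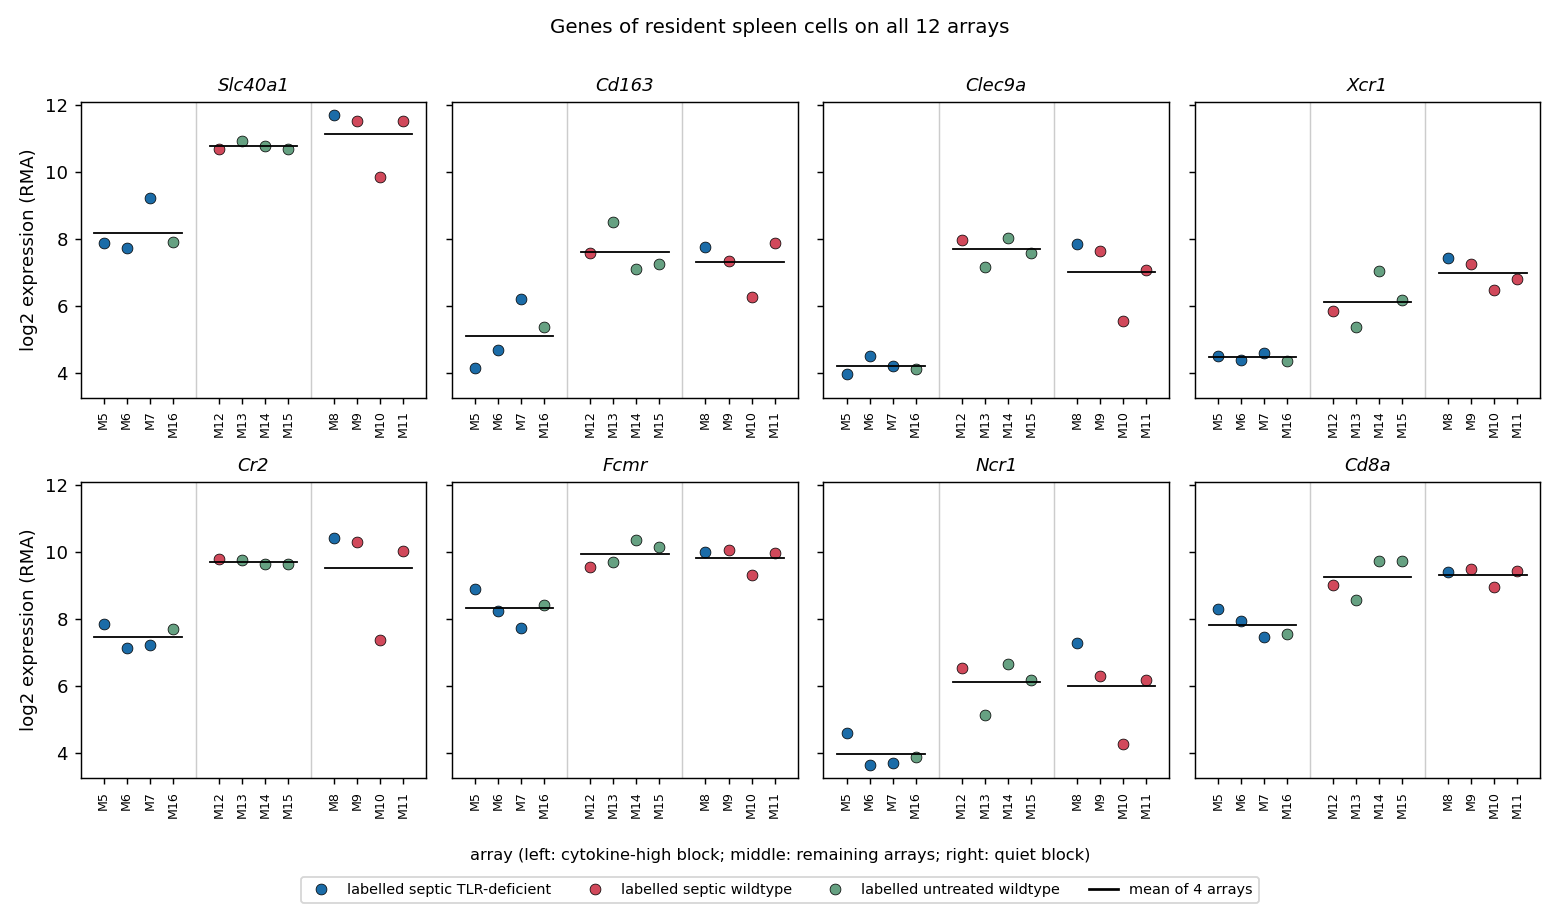
Log2 expression of genes of red pulp macrophages (Slc40a1, Cd163), dendritic cells (Clec9a, Xcr1), B cells (Cr2, Fcmr), natural killer cells (Ncr1) and T cells (Cd8a) is plotted for all 12 arrays in 3 blocks, coloured by label, with a bar at each block's mean. The cytokine-high arrays lie below the remaining arrays and M10 is the lowest quiet array in each gene, at 7.37 for Cr2 against 10.04 to 10.42 on the other quiet arrays.

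The remaining genes of the 12 largest negative differences have varied roles. They were Abcg3, a transporter family member, at -2.76 (-3.29), Cmbl, a hydrolase, at -2.70 (-3.11), Kcnj16, a potassium channel, at -2.67 (-2.70), Clec4g, a lectin of sinusoidal endothelium, at -2.65 (-3.01), Kazald1, a secreted protein, at -2.23 (-2.48) and Hpgd, which breaks down prostaglandins, at -2.17 (-2.55). Kcnj16 was the steadiest of them in the quiet block, at 7.20, 7.04, 6.94 and 6.90 against 4.22, 3.96, 4.87 and 4.34. Of 14 eosinophil, basophil and mast cell genes 3 were lower and 1 higher (3 and 2 without M10). The lower ones were Ccr3, Il5ra at -1.07 (-1.25) and Epx, the eosinophil peroxidase, at -0.75 (-0.63). Epx was low on all 12 arrays, at 3.32 to 4.66. Hdc, the histamine-making enzyme, was higher at 1.27 (1.46). Block means were lower in 11 of the 14 genes, and in 12166 of all 19938 genes. Without overlap, 4.98% of all genes were lower and 5.22% higher (12.5% and 6.74% without M10).

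Among the other groups, none of 16 erythroid genes, 24 cell cycle genes or 10 reference genes was free of overlap, with or without M10, and the medians were 0.13 (0.33), 0.35 (0.27) and 0.12 (-0.10). Platelet genes were lower in 4 of 9 (median -0.42, and -0.48 without M10). Adipocyte and mesothelial genes were lower in 2 and higher in 1 of 14, and plasma cell genes higher in 2 and lower in 1 of 10. The counts of these lists were the same without M10. Over all genes 10.2% were free of overlap either way (19.2% without M10), so a low count in a list of this size says little. Of the 4 TLR adaptors, Myd88 and Tirap were higher and Ticam2 lower without overlap, with and without M10.

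Within the cytokine-high block M7 had the lowest mean level of the cytokine list. It was the block's array nearest to the quiet block in 356 of the 548 higher genes (65%), and in 286 of the 404 found without M10 (70.8%). That level was 6.08 on M7 and up to 6.93 on the other 3 arrays. M16, which is labelled untreated, was nearest in only 20 of the 548 genes (3.65%), and its Il6 value of 9.22 was the highest of all 12 arrays. Among the lower genes found without M10, M5 was nearest in 204 of 437 (46.7%). Acinar genes of the pancreas, an organ next to the spleen, had a mean level of 6.45 on M16 and 4.41 to 4.67 on the other cytokine-high arrays, and their part in the differences was not tested. Cpa1, a pancreatic carboxypeptidase, read 7.86 on M16 against 4.78 to 5.40 on M5, M6 and M7.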

How the data were processed

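Spleen RNA of 12 mice was labelled with Affymetrix whole-transcript kits, per the labels' protocols. The deposited values are log2 expression per probe set, made with RMA in Affymetrix Expression Console per the submitters' processing notes, whose versions are not given in the sources used here. Probe sets numbered 35557: 21789 carry a single gene symbol, 1621 several and 12147 are unnamed here. Each gene took its single-symbol probe set with the highest mean.

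Block means were subtracted on the log2 scale with Python 3.11.15, numpy 2.4.6 and pandas 2.3.3, and a gene did not overlap where every array of one block lay above every array of the other. The code was tested on simulated data. No test was run. The blocks, the 31 gene lists and the rule for named genes were chosen with earlier results of these data known. The rule names the 5 markers, the 12 largest non-overlapping differences each way, up to 4 members per list by size of difference, and Myd88, Ticam1, Xist and Eif2s3y. Alternatives were a further quantile normalization, centring, other probe set rules, a filter on dim genes, block medians, a 4-fold minimum and each array left out. The extraction protocol opens with a sentence on mutants of another gene, which was not used.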

Additional observations from a re-analysis of the deposited data

Results flagged for a closer look

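In groups of 4 arrays, the following values lay far from the other 3 by Dixon's criterion, which chance meets in about 1 in 20 groups; 20 of 168 groups met it. M10 and M7 account for most of them. The standard deviation of log2 values was 1.52 on M10 among the arrays labelled septic wildtype, and 2.16 on M13 among those labelled untreated.

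On M10, within the quiet block, Slc40a1 was at 9.86 and Hpgd at 8.27. The mean level of the list was 6.64 for NF-kappaB genes, 7.48 for hypoxia and glycolysis genes, 7.74 for B cell genes, 5.68 for eosinophil, basophil and mast cell genes, 6.25 for marginal zone macrophage genes, 6.39 for dendritic cell genes and 6.96 for T cell genes. It was 5.60 for pancreatic acinar genes, 6.55 for stromal and endothelial genes, 9.01 for reference genes and 6.12 for TLR adaptors.

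Within the cytokine-high block, M7 had Slc40a1 at 9.21, a mean level of 6.08 for inflammatory cytokines and of 8.09 for type I interferon-stimulated genes. M16 had 8.15 for glucocorticoid-responsive genes and 6.45 for pancreatic acinar genes.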

How the results depend on the processing

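Leaving out each of the 8 arrays in turn gave 1160 to 1542 higher and 1127 to 2491 lower genes without overlap. These counts could only stay or rise, because fewer arrays make the rule easier to meet. At 2-fold the ranges were 404 to 759 higher and 158 to 437 lower genes. Centring each array on its median gave 554 lower genes and 99 at 2-fold, a further quantile normalization 263 at 2-fold, and a 4-fold minimum 118 higher and 18 lower. The other settings moved these counts by less than 1.5 times. Of the named genes' differences, 507 of 512 under other settings moved by less than 1 SD, and no non-overlapping one changed sign. All 1024 with an array left out did the same, but that outcome was fixed in advance. Dropping 1 of 4 arrays cannot move a difference by 1 SD of these arrays, nor change the sign of a non-overlapping one.

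List medians near 0 changed sign. Under quantile normalization they were -0.033 for plasma cell, -0.065 for erythroid, -0.079 for stromal and -0.030 for reference genes. With block medians they were -0.066 for neutrophil granule, -0.0023 for plasma cell, -0.020 for acinar, -0.063 for stromal and -0.082 for reference genes. With each array left out they ranged from -0.077 to 0.21 for plasma cell (lowest without M10), -0.29 to 0.45 for neutrophil granule (M7), -0.21 to 0.64 for erythroid (M9), -0.30 to 0.42 for acinar (M16), -0.043 to 0.42 for stromal and -0.10 to 0.23 for reference genes (both M10). The range was -0.35 to 0.048 for sex-linked transcripts (highest without M10) and -0.73 to 0.012 for marginal zone macrophage genes (M11). The cause was not tested. No paired analysis was possible because the blocks were compared with no test and do not follow the labels' replicate numbers. The number of arrays limits the precision, and dim probe sets were not set against a background level.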

Other observations

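Pancreatic acinar genes were high on some of the remaining arrays, with a mean level of 8.27 on M12 and 9.31 on M14. Ctrb1, which encodes a chymotrypsinogen, read 9.99 on M12, 7.01 on M13, 10.95 on M14 and 4.51 on M15, against 4.70 to 6.42 in the quiet block. In the cytokine-high block it read 7.90 on M16 and 4.97 to 5.07 on the other 3 arrays.

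Erythroid genes varied as much inside the blocks as between them. Rhag, a red cell membrane protein, was 8.64, 9.58, 10.02 and 7.09 on M5, M6, M7 and M16 and 8.31, 5.16, 8.63 and 7.42 on M8 to M11, so M16 and M9 were the low arrays. Car3, a carbonic anhydrase of fat tissue, ranged from 4.57 to 8.22 in the cytokine-high block and from 6.62 to 8.67 in the quiet block.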
